A study of Mus musculus with 6 samples.

Results

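The genes described are 9 transcription factor genes of the cerebellar granule cell lineage: the zinc finger genes Zic1, Zic2, Zic4 and Zic5, the ETS factor gene Etv1, and the homeobox genes Pax6, Barhl1, Barhl2 and Meis1. They were taken by symbol from count tables of 24411 genes; all 9 were found, and all 9 were among the 15519 genes with enough reads to be tested. Mouse cerebellar RNA was sequenced in bulk at postnatal day 18, in 3 libraries with the genotype Atoh7 Remote Enhancer KO (KO), in which a distant regulatory element of the bHLH gene Atoh7 was knocked out, and 3 wild-type libraries (WT). The sources used here give no strain, sex or extent of the deletion. The sample entries for tissue read retina while the protocol and the series design read cerebellum. The replicates are described as independent, without saying whether each is 1 animal.

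Granule neurons are the small, very numerous excitatory neurons of the cerebellar cortex. They arise from the rhombic lip through the bHLH factor Atoh1, multiply in the external granular layer after birth, and then migrate inward and mature. Zic proteins bind DNA through C2H2 zinc fingers and stay on in granule cells from the progenitor to the mature neuron. Pax6 carries a paired domain and a homeodomain, Barhl1 and Barhl2 carry a Bar-class homeodomain, Meis1 is a TALE homeodomain protein, and Etv1 is a PEA3-group ETS factor linked to granule cell maturation. Several of these genes also act elsewhere: Pax6, Barhl2 and Meis1 in the retina, and Zic genes in the meninges.

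Meis1 was the one gene of the 9 past the threshold: it fell in KO to 37.3 ± 1.24 CPM, against 46.5 ± 5.52 CPM in WT (SD, n = 3 each). Its log2 fold change was −0.30 (SE 0.09; adjusted p = 0.0383 by edgeR). CPM are reads per 1000000 after scaling of library sizes, and fold changes are KO minus WT. Adjusted p-values come from the quasi-likelihood test of edgeR, corrected by the Benjamini-Hochberg method across the whole table, with a threshold of 0.05. The other 8 genes did not pass, although the 95% intervals of Zic1, Zic2, Zic4 and Pax6 also lay below 0, and the Meis1 call was kept in 7 of 13 alternative settings. Of all tested genes 16.7% passed, 10.2% as lower and 6.43% as higher in KO, so 1 lower gene of 9 is close to the share among all genes. The log2 fold change was negative for 7 of the 9 genes and positive for Barhl1 and Barhl2, with a median of −0.30 over the 9 genes beside −0.01 over all tested genes. At an unadjusted p under 0.05 there were 5 of the 9 genes (Meis1, Zic1, Zic4, Zic2 and Pax6), beside 32.5% of all tested genes. In bulk tissue, fewer cells of a type and less RNA per cell cannot be told apart.

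**Figure D1:**
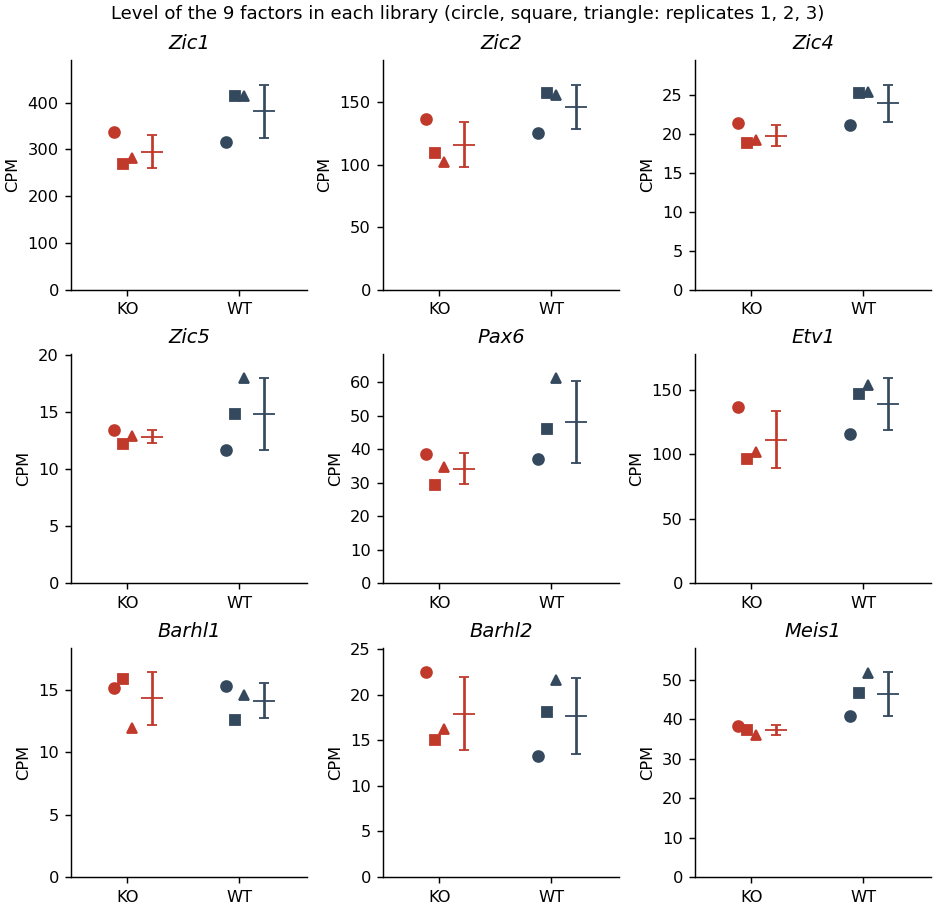
Level of each of the 9 genes in CPM on a linear axis from 0, with the 3 KO libraries at left and the 3 WT libraries at right; circles, squares and triangles are replicates 1, 2 and 3, and bars give the mean ± SD. Meis1 is the one gene whose 3 KO values (36.0 to 38.5 CPM) all lie under its 3 WT values (40.9 to 51.9 CPM).

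Reads on genes numbered 32556977 to 34438262 in the KO libraries and 16340132 to 28170761 in the WT libraries. Rn45s, the ribosomal RNA precursor, held 63.2% of the gene reads of WT replicate 3, and 6015125 reads there were on other genes. Reads outside genes made up 17.3% ± 0.291 of KO and 34.3% ± 3.59 of WT libraries (SD, n = 3 each; two-sided exact permutation p = 0.1, which is the minimum for 3 against 3), and their part in the results below was not tested. WT replicate 1 had 31134 Xist reads and 0 reads on Y-linked genes, whereas every other library had at most 10 Xist reads and at least 1510 Y-linked reads. Atoh7 itself had 45, 54 and 92 reads in KO replicates 1 to 3 and 72, 56 and 7 reads in WT replicates 1 to 3 (adjusted p = 0.706 by edgeR). The knocked-out element is described as distant from the gene, and Atoh7 reads were few in both genotypes, so these counts do not check the labels. Of 9 retinal genes, Crx had 0 reads in every library. The summed level was 8.15 to 11.3 CPM in KO and 9.90 to 11.8 CPM in WT. Most of it came from Rlbp1, which Bergmann glia also express. Only 4 of these genes had enough reads to be tested. Among them Rcvrn fell (log2 −2.42, adjusted p = 0.0145 by edgeR), on 6, 3 and 2 reads in KO and 15, 14 and 7 reads in WT. The 15 mature granule neuron genes summed to 2153 to 2902 CPM in KO and 2682 to 3312 CPM in WT.

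The upstream sequences of Meis1, the one gene past the threshold, and of Zic1 and Zic4, which lie head to head on chromosome 9, are shown with the bHLH recognition letters CANNTG (the E-box, bound by factors such as Atoh7 and Atoh1) in capitals. The sequences are the 250 bases before the RefSeq start of each gene on GRCm38.p6, 5′ to 3′ on the gene's strand: Meis1 at chr11:19018970-19019219 (minus strand), Zic1 at chr9:91365769-91366018 (minus strand) and Zic4 at chr9:91368722-91368971 (plus strand).
Meis1: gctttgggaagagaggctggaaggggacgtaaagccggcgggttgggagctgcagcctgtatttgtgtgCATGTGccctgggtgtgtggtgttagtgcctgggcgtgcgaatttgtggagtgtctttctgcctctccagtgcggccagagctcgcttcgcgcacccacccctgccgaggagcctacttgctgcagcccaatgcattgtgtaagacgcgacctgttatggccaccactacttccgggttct
Zic1: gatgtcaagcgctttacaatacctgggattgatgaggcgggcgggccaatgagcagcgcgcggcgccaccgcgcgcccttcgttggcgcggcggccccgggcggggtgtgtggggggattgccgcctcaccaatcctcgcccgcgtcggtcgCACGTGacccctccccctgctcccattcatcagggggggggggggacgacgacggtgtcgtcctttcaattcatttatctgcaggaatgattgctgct
Zic4: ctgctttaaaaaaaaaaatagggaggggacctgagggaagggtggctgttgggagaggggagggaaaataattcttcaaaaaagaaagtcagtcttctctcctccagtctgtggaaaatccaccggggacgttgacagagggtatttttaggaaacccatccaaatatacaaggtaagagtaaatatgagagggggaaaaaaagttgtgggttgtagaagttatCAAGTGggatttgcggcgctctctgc
Each of the 3 windows held 1 E-box. Start sites were listed for 8 of the 9 genes (Zic2 was the gene without one), 11 in all. The letters CANNTG, which read on both strands, were in 9 of these 11 windows (81.8%), against 66.2% of 32851 windows of the same length over all genes. The ZIC letters CAGCAGG, searched on both strands, were in 0 of the 11 windows and in 8.44% of all windows. The MEIS letters TGACAG, likewise on both strands, were in 2 of the 11, those of Zic4 and 1 Pax6 start, and in 15.9% of all windows. The BARHL letters TAAACG were in 0 of the 11 and in 2.76% of all windows, and the ETS letters CCGGAAGT were in the Meis1 window and in 2.88% of all windows, both strands searched. These motifs do not overlap each other in the printed windows, and matched letters are a description of the sequence and not evidence of binding.

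Zic1 was the most abundant of the 9 genes, and with Zic2 it stood apart from the rest. Per kilobase of annotated exon, Zic1 averaged 51.9 ± 6.33 CPM in KO and 67.0 ± 10.01 CPM in WT, and Zic2 averaged 40.3 ± 6.29 CPM in KO and 50.7 ± 6.22 CPM in WT (SD, n = 3 each). Next came Etv1 (8.37 ± 1.65 in KO, 10.4 ± 1.51 in WT) and Barhl2 (7.73 ± 1.73 in KO, 7.62 ± 1.80 in WT). The values of Zic1 and Zic2 overlapped over the 6 libraries, as did those of Etv1 and Barhl2, but every Zic2 value lay above every Etv1 value and every Barhl2 value above every Meis1 value. Meis1, Barhl1, Pax6, Zic5 and Zic4 followed in this order, each overlapping the next, from means of 3.54 ± 0.118 for Meis1 in KO and 4.42 ± 0.524 in WT to 1.92 ± 0.135 for Zic4 in KO and 2.32 ± 0.231 in WT. These per-length levels use the union of exons in GENCODE M21, which may differ from the annotation behind the counts.

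Zic1 (ENSMUSG00000032368.14; GRCm38 chromosome 9, 91358058 to 91365810, minus strand) is needed, together with Zic4, for a cerebellum of normal size and foliation in mice. It had 336, 268 and 281 CPM in KO replicates 1 to 3, against 316, 414 and 414 CPM in WT replicates 1 to 3. The lowest WT library lay inside the KO range and the other WT libraries above it. The log2 fold change was −0.37 (SE 0.12, 95% interval −0.64 to −0.09; adjusted p = 0.0694 by edgeR). The call turned on single libraries: without WT replicate 1 the value was −0.49 (adjusted p = 0.00789) and without KO replicate 1 it was −0.47 (adjusted p = 0.0464), while DESeq2 on all 6 libraries gave −0.36 (adjusted p = 0.0207).

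Zic4 (ENSMUSG00000036972.14; chromosome 9, 91362413 to 91389348, plus strand) is the divergent neighbour of Zic1, and its longest annotated transcript overlaps Zic1 by 3398 bases on the other strand. Its level was 21.4, 18.8 and 19.2 CPM in KO replicates 1 to 3 and 21.2, 25.2 and 25.4 CPM in WT replicates 1 to 3. As for Zic1, KO replicate 1 reached the level of WT replicate 1. The difference was −0.26 (SE 0.10, interval −0.47 to −0.05; adjusted p = 0.0851 by edgeR). For each 100 Zic1 reads there were 6.74 ± 0.335 Zic4 reads in KO and 6.32 ± 0.349 in WT (SD, n = 3 each; two-sided exact permutation p = 0.2).

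Zic2 (ENSMUSG00000061524.8; chromosome 14, 122475435 to 122479852, plus strand), known from forebrain midline development, had 137, 109 and 102 CPM in KO replicates 1 to 3, against 125, 157 and 156 CPM in WT replicates 1 to 3. Here KO replicate 1 lay above WT replicate 1. The log2 fold change was −0.33 (SE 0.12, interval −0.61 to −0.05; adjusted p = 0.1004 by edgeR), and it passed without WT replicate 1 (−0.43, adjusted p = 0.0300) and without KO replicate 1 (−0.46, adjusted p = 0.0358). DESeq2, under which 17.1% of all tested genes passed, gave calls for Zic1, Pax6 and Meis1 but not for Zic2; without WT replicate 1 the share of all genes was 15%, without KO replicate 1 it was 8.22%, without WT replicate 3 it was 23.4%, and in limma-voom with quality weights, where Zic4 and Meis1 passed, it was 26.4%. There were 39.2 ± 2.46 Zic2 reads for each 100 Zic1 reads in KO and 38.4 ± 1.15 in WT (SD, n = 3 each; exact permutation p = 0.8).

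Zic5 (ENSMUSG00000041703.7; chromosome 14, 122456795 to 122465677, minus strand) is the divergent partner of Zic2, 9757 bases away. Its level was 13.4, 12.2 and 12.9 CPM in KO replicates 1 to 3 and 11.7, 14.8 and 17.98 CPM in WT replicates 1 to 3. The WT values ran from under the lowest to above the highest KO value. The log2 fold change of −0.15 (SE 0.13, interval −0.44 to 0.14; adjusted p = 0.465) was the smallest in size among the 4 Zic genes of the set, and it moved to −0.31 without WT replicate 1 and −0.04 without WT replicate 3. The ratio of Zic5 to Zic2 was 11.2 ± 1.40 reads for each 100 in KO and 10.1 ± 1.25 in WT (SD, n = 3 each; exact permutation p = 0.3). Gm5089, 5679 bases from Zic5 (−0.14, adjusted p = 0.630), and 2610035F20Rik, 235 bases from Zic2 (−0.30, adjusted p = 0.468 by edgeR), did not pass either.

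Pax6 (ENSMUSG00000027168.21; chromosome 2, 105668900 to 105697364, plus strand), which marks rhombic lip derivatives, had the fold change furthest from 0 among the 9 genes with all 6 libraries in edgeR, but not without WT replicate 3 or in limma-voom, where Zic1 was further from 0. Its level was 38.6, 29.5 and 34.7 CPM in KO replicates 1 to 3 and 37.1, 46.1 and 61.2 CPM in WT replicates 1 to 3. WT replicate 1 lay within the KO range and WT replicate 3, the library rich in Rn45s, was far above it. The log2 fold change was −0.45 (SE 0.18, interval −0.88 to −0.03; adjusted p = 0.134 by edgeR), −0.28 without WT replicate 3 (adjusted p = 0.191) and −0.61 without WT replicate 1 (adjusted p = 0.0205). DESeq2 gave −0.47 (adjusted p = 0.0235).

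Pax6 was also the one gene of the 9 with a sizeable and higher number of reads on the opposite strand in KO. These reads, which enter no fold change above, numbered 191, 189 and 215 in KO replicates 1 to 3 and 131, 120 and 28 in WT replicates 1 to 3, or 4.97 ± 0.207 CPM in KO and 3.95 ± 0.338 CPM in WT (SD, n = 3 each). For each 100 Pax6 reads there were 14.6 ± 1.68 in KO and 8.46 ± 1.62 in WT, and no KO value was under a WT value (exact two-sided permutation p = 0.1, the minimum for this design; for the CPM, 0.3 after adjustment over the 9 genes). Pax6os1, Elp4 and Paupar run on that strand nearby. Pax6os1 overlaps Pax6 by 1431 bases and averaged 0.615 ± 0.217 CPM in KO and 0.787 ± 0.433 CPM in WT. Elp4, an Elongator subunit gene 3662 bases from Pax6, averaged 36.0 ± 1.19 CPM in KO and 33.7 ± 1.25 CPM in WT (log2 0.10, SE 0.07; adjusted p = 0.339 by edgeR; SD, n = 3 each). Paupar, a long noncoding RNA gene 7556 bases away, averaged 0.295 ± 0.0899 CPM in KO and 0.868 ± 0.725 CPM in WT (−1.01, SE 0.51; adjusted p = 0.193 by edgeR). Opposite-strand reads were at most 13.4% of the sense reads for Zic5 and at most 2.21% for the other 7 genes.

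Etv1 (ENSMUSG00000004151.17; chromosome 12, 38779380 to 38870484, plus strand) spread widely within each genotype. It had 136, 96.2 and 101 CPM in KO replicates 1 to 3, against 116, 146 and 154 CPM in WT replicates 1 to 3. KO replicate 1 was above WT replicate 1, and the groups overlapped. The log2 fold change was −0.31 (SE 0.16, interval −0.68 to 0.05; adjusted p = 0.216 by edgeR) and passed when KO replicate 1 was left out (−0.48, adjusted p = 0.0419).

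Barhl1 (ENSMUSG00000026805.14; chromosome 2, 28907679 to 28916668, minus strand), required in mice for the migration and survival of granule cells, had 15.2, 15.9 and 11.9 CPM in KO replicates 1 to 3 and 15.3, 12.6 and 14.6 CPM in WT replicates 1 to 3. The ranges lay over each other, and the log2 fold change was 0.03 (SE 0.13; adjusted p = 0.914 by edgeR) with a 95% interval of −0.25 to 0.31. Barhl2 (ENSMUSG00000034384.11; chromosome 5, 106452523 to 106458166, minus strand), its paralog, known from retinal amacrine and ganglion cells, had 22.5, 14.99 and 16.2 CPM in KO replicates 1 to 3 and 13.2, 18.1 and 21.5 CPM in WT replicates 1 to 3. It was the most variable of the 9 genes, with a fitted biological coefficient of variation of 17.6% beside a median of 8.29% over tested genes, and its log2 fold change was 0.07 (SE 0.21, interval −0.41 to 0.56; adjusted p = 0.841). For each 100 Barhl1 reads there were 148, 94.4 and 136 Barhl2 reads in KO replicates 1 to 3 and 86.5, 144 and 148 in WT replicates 1 to 3, and the ranges overlapped (exact permutation p = 0.9). Ddx31, a helicase gene 2107 bases from Barhl1, averaged 5.31 ± 0.0498 CPM in KO and 6.58 ± 0.463 CPM in WT (−0.33, SE 0.11; adjusted p = 0.0633 by edgeR). Both signs turned when single libraries were left out: Barhl1 was at −0.02 without KO replicate 1, −0.05 without KO replicate 2 and −0.07 without WT replicate 2, and Barhl2 at −0.13 without KO replicate 1 and −0.12 without WT replicate 1.

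Meis1 (ENSMUSG00000020160.18; chromosome 11, 18879817 to 19018985, minus strand) had 38.5, 37.4 and 36.0 CPM in KO replicates 1 to 3, against 40.9, 46.7 and 51.9 CPM in WT replicates 1 to 3. All KO values were below all WT values. Of tested genes, 20.5% had this arrangement with KO lower and 18.9% with KO higher, and Meis1 was the one gene of the 9 with either. Its 95% interval ran from −0.49 to −0.11. The KO libraries were within 1.07 fold of each other and the WT libraries within 1.27 fold. The call was lost, at log2 fold changes of −0.32 to −0.28, without KO replicate 1 (adjusted p = 0.0859), KO replicate 2 (0.116), KO replicate 3 (0.145) or WT replicate 2 (0.114). It was also lost with library sizes without TMM and Rn45s left out (−0.28, 0.0818) and with the replicate number as a block (−0.30, 0.104), and it was kept without WT replicate 3 (−0.23, adjusted p = 0.0273) and without WT replicate 1 (−0.39, adjusted p = 0.0119).

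**Figure D2:**
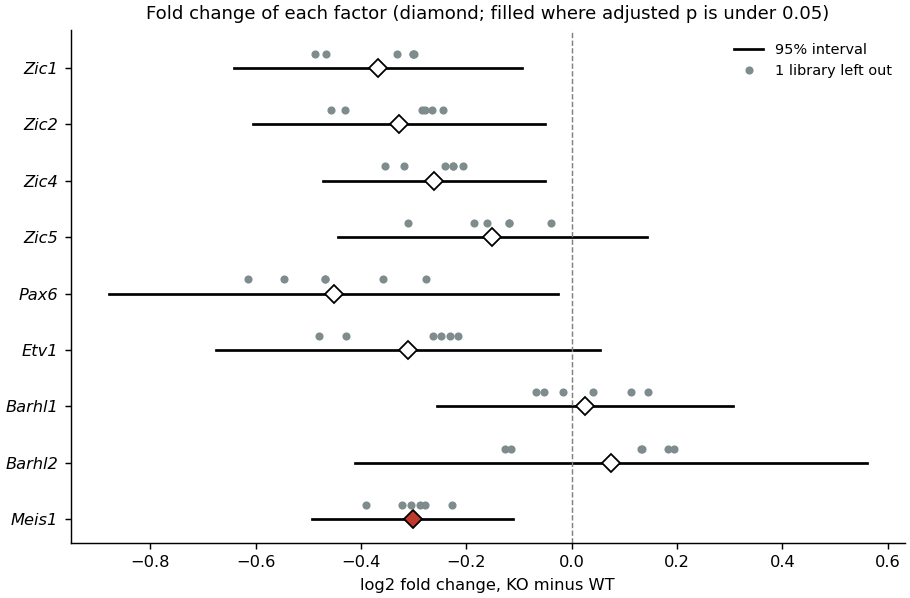
Log2 fold change of each gene, KO minus WT, from edgeR (diamonds, filled where the adjusted p is under 0.05) with 95% intervals (lines) and the values with 1 library left out (grey points). Only the Meis1 diamond is filled, and the Barhl1 and Barhl2 points lie on both sides of 0.

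Meis2, a paralog of Meis1, changed the other way. It rose to 57.5, 66.3 and 60.3 CPM in KO replicates 1 to 3, against 49.8, 40.1 and 46.3 CPM in WT replicates 1 to 3 (log2 0.44, SE 0.09; adjusted p = 0.0104 by edgeR). For each 100 Meis1 reads there were 150, 177 and 168 Meis2 reads in KO and 122, 85.9 and 89.3 in WT. The ratio could not overlap between genotypes, because neither gene overlapped and they changed in opposite directions. Its two-sided exact permutation p was 0.1, the smallest possible, and 0.9 after adjustment over the 14 ratios computed. It therefore adds nothing to the fold changes of both genes.

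**Figure D3:**
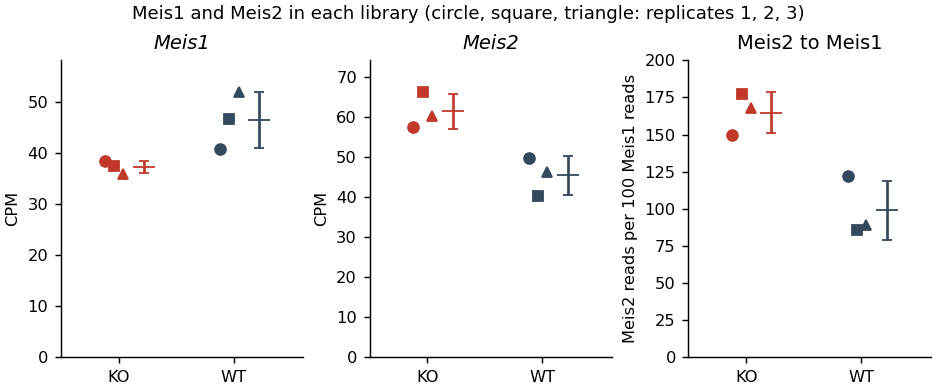
Meis1 and Meis2 in CPM, and Meis2 reads per 100 Meis1 reads, with KO libraries at left and WT libraries at right; symbols are replicates 1 (circle), 2 (square) and 3 (triangle), and bars are mean ± SD. The ratio is 150 to 177 in KO and 85.9 to 122 in WT.

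Among the wider families, 28 genes related to the 9 (GLI and GLIS zinc finger, other PAX, PEA3, Barx and TALE genes among them) were listed, and 25 were tested. In this list 2 genes rose and 1 fell, 22 stayed above the threshold, and the median log2 fold change was 0.13. Of all tested genes 6.43% rose and 10.2% fell, so these counts do not set the list apart. Beside Meis2, the homeobox gene Barx2 rose to 4.28 ± 0.244 CPM in KO, against 3.05 ± 0.240 CPM in WT (0.51, SE 0.14; adjusted p = 0.0310), and the TALE gene Pknox1 fell to 17.9 ± 0.436 CPM in KO, against 22.3 ± 3.43 CPM in WT (−0.35, SE 0.10; adjusted p = 0.0406 by edgeR; SD, n = 3 each). Of 15 other regulators of the granule lineage, 0 passed in either direction (median −0.19), beside 16.7% of all tested genes. Its most abundant members, the nuclear factor I genes Nfix (0.00, adjusted p = 0.999), Nfib (−0.22, adjusted p = 0.178) and Nfia (−0.01, adjusted p = 0.949), did not pass in edgeR. Atoh1, the bHLH factor that founds the lineage, had 1, 5 and 7 reads in KO and 2, 4 and 0 reads in WT, too few to be tested.

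Of the 9 genes 8 shared an ordering of the libraries. In these 8, all but Barhl1, replicate 1 was the highest KO library and replicate 1 was the lowest WT library, an arrangement that 14.5% of all tested genes had. WT replicate 1 was also the library with 31134 Xist reads and 0 Y-linked reads, and the part of this difference was not tested. KO replicate 1 was above WT replicate 1 in log2 CPM for the 4 Zic genes, Pax6, Etv1 and Barhl2, opposite to the sign of the genotype difference in each but Barhl2. Zic1 and Zic2 had the most similar profiles of any pair of the 9 (root mean square difference of mean-centred log2 CPM over the 6 libraries 0.0605), followed by Zic4 with Meis1 (0.0621) and Zic1 with Etv1 (0.0655), and Pax6 with Barhl1 the least similar (0.389). Barhl1 instead was highest in KO replicate 2 and lowest in WT replicate 2.

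**Figure D4:**
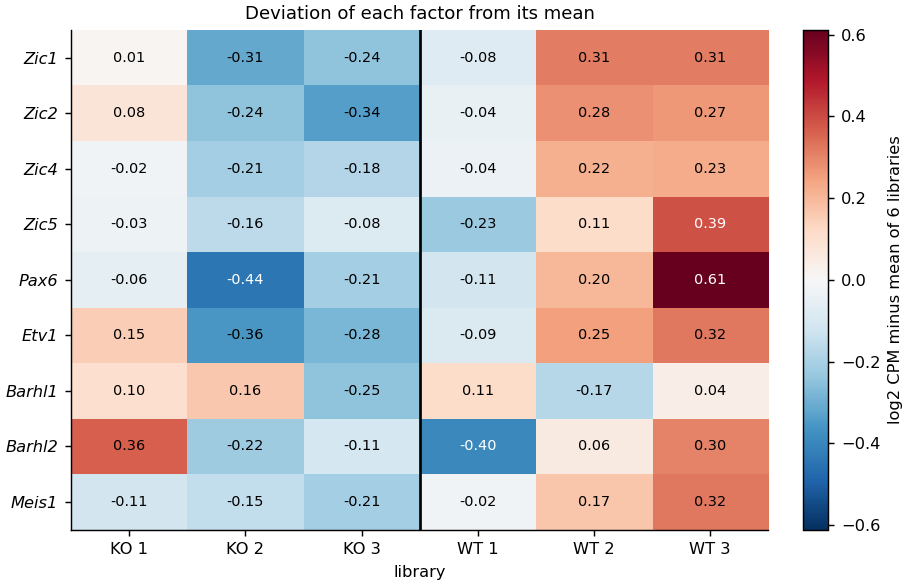
Deviation of each gene (rows) from its mean over the 6 libraries in log2 CPM, with KO libraries left and WT libraries right of the line; red is above and blue below the mean. WT replicates 2 and 3 are above the mean in 8 of the 9 rows, and Barhl1 departs from that pattern with −0.17 in WT replicate 2.

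Outside the set, among 9810 genes with a mean of at least 10 CPM, the profile most like that of Zic1 was that of St18, a zinc finger gene, with a root mean square difference of 0.0295 where the median gene had 0.276. Xkr7 (0.0390) and Eps8 (0.0493), an actin capping protein, followed. For Zic2 the 3 nearest were St18 (0.0436), the GATA cofactor gene Zfpm2 (0.0439) and Camk4 (0.0491), a calcium-dependent kinase abundant in granule cells. For Etv1 they were Camk4 (0.0359), the active zone gene Erc1 (0.0604) and the homeobox gene En2 (0.0621). With 6 libraries these distances describe the samples and carry no test.

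Of 15 listed genes of mature granule neurons 6 fell, 0 rose and the other 9 did not pass, and the median log2 fold change was −0.24. Among all tested genes 10.2% fell and 6.43% rose. Their summed levels, given above, overlapped between genotypes (two-sided exact permutation p = 0.2). The GABA receptor subunit gene Gabra6 fell to 181 ± 23.8 CPM in KO, against 286 ± 48.9 CPM in WT (−0.66, SE 0.14; adjusted p = 0.0157), and Reln, the secreted guidance protein of granule cells, to 195 ± 23.8 CPM in KO, against 263 ± 16.9 CPM in WT (−0.42, SE 0.09; adjusted p = 0.0110 by edgeR; SD, n = 3 each). Car4, a carbonic anhydrase (−0.50, adjusted p = 0.0177), and Kcnd2, a potassium channel subunit (−0.24, adjusted p = 0.0388), fell too, whereas the 3 with the highest mean over the 6 libraries, Fat2 (−0.60, adjusted p = 0.136), Cbln3 (−0.23, adjusted p = 0.299) and Cbln1 (−0.04, adjusted p = 0.869 by edgeR), did not pass.

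The factors were also counted against these genes, whose summed level averaged 2464 CPM in KO and 2987 CPM in WT, so that every log2 ratio shifts up by about the same amount. For each 1000 reads of the 15 mature granule neuron genes, Zic1 had 120 ± 4.40 reads in KO and 127 ± 11.1 in WT (SD, n = 3 each; exact permutation p = 0.4), and Meis1 had 15.3 ± 2.06 in KO and 15.6 ± 1.72 in WT (exact permutation p = 0.9). On this scale the log2 ratio of the KO mean to the WT mean was −0.03 for Meis1, −0.08 for Zic1, −0.05 for Zic2, 0.01 for Zic4, 0.09 for Zic5, −0.04 for Etv1 and −0.21 for Pax6, and it was 0.30 for Barhl1 and 0.29 for Barhl2. The 2 genotypes overlapped for each of the 9 genes on this scale (exact permutation p from 0.3 to 0.9). A p that misses the threshold does not show that the ratios were alike, and 3 libraries against 3 cannot give a p under 0.1.

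**Figure D5:**
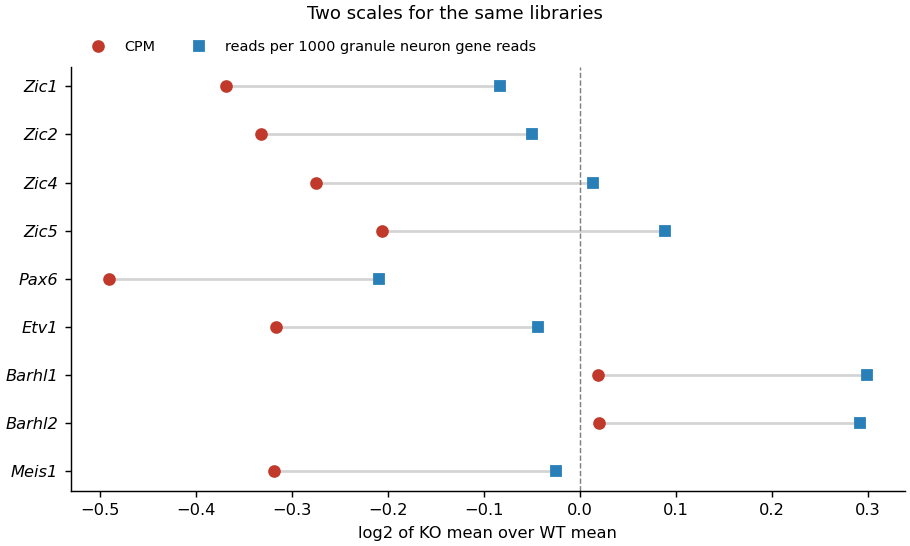
Log2 of the KO mean over the WT mean for each gene, from CPM (circles) and from reads per 1000 reads of the 15 mature granule neuron genes (squares). The squares of Meis1, Zic1, Zic2, Zic4, Zic5 and Etv1 lie between −0.08 and 0.09, those of Barhl1 and Barhl2 at 0.30 and 0.29, and that of Pax6 at −0.21; the squares share 1 denominator, so they shift together.

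Genes of other cell types of the dissected tissue were counted in the same way, beside 10.2% of all tested genes lower and 6.43% higher in KO. The 12 meningeal fibroblast genes, a cell type that also expresses Zic genes, summed to 249 to 260 CPM in KO and 341 to 493 CPM in WT, with 8 lower, 0 higher and 4 not passed, Col3a1 among them at −0.95 (SE 0.13; adjusted p = 0.00162 by edgeR). The 7 interneuron genes summed to 930 to 993 CPM in KO and 822 to 873 CPM in WT, with 3 higher (Gad2, Slc6a5 and Slc32a1) and 0 lower. Of 7 Purkinje cell genes 1 rose, the calcium buffer gene Calb1 (0.36, SE 0.08; adjusted p = 0.0163), and of 6 Bergmann glia genes 1 fell, the fatty acid binding protein gene Fabp7 (−0.37, SE 0.09; adjusted p = 0.0210), while 0 of 5 choroid plexus genes passed in edgeR. The 5 oligodendrocyte genes summed to 27957 to 29972 CPM in KO and 21901 to 25311 CPM in WT, with 0 past the threshold. Of 10 brainstem genes 4 rose (Th, Dbh, Slc6a2 and Chat, of catecholamine and acetylcholine neurons), with sums of 94.8 to 116 CPM in KO and 77.3 to 103 CPM in WT. The serotonin genes Slc6a4 (−0.27, adjusted p = 0.864) and Tph2 (−0.22, adjusted p = 0.828 by edgeR) did not pass, but they differed widely between libraries of a genotype. Slc6a4 had 6.69, 23.4 and 5.98 CPM in KO replicates 1 to 3 and 25.1, 6.34 and 9.92 CPM in WT replicates 1 to 3. Tph2 was likewise highest in KO replicate 2 (22.2 CPM) and WT replicate 1 (23.8 CPM) within each genotype. Of the 8 tested genes listed for granule progenitors and young granule neurons, 2 fell (Top2a and Dcx). Sums over the 9 listed were 343 to 380 CPM in KO and 376 to 417 CPM in WT. Most of this came from Cntn2, with means of 227 CPM in KO and 243 CPM in WT. Of 5 unipolar brush cell genes Eomes, a T-box factor, fell to 7.39 ± 0.431 CPM in KO, against 13.1 ± 2.33 CPM in WT (SD, n = 3 each). The part of these cell types in the values of the 9 factors was not tested.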

How the data were processed

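The authors deposited raw counts of reads per gene, 1 table per library with 24411 genes; per the submitters' processing notes, Trimmomatic, STAR and mm10 were used. The sources used here give no versions, annotation, strandedness or batches. The heavier strand column was used (47.6 to 128 times the other), and the 4 summary lines were left out. Groups came from sample titles, each of which also carries the label Set8. Genes were filtered with filterByExpr (8892 removed), scaled by TMM and compared with edgeR's quasi-likelihood test (glmQLFit, robust; R 4.3.3, edgeR 4.0.16), and p-values were adjusted by Benjamini-Hochberg across the tested genes; the procedure was tested on simulated data. SEs are |log2 fold change|/√F, and log2 CPM have a prior count of 2. DESeq2 1.42.0 and limma 3.58.1 were alternatives. Library measures and ratios were compared by exact permutation with scipy 1.17.1. Positions and exon lengths came from GENCODE M21 (GRCm38, the assembly of mm10) and promoters from RefSeq (GRCm38.p6).

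The 9 genes, the lists and the tests were chosen with earlier results of these data known. Named genes were all 9, with others drawn, in each list, from the 3 with the highest mean CPM and up to 4 with the smallest p among those past the threshold; further names in the text were chosen after their values were seen. STAR's gene counts leave out reads that align in several places, so genes with near-identical copies are less certain. In WT replicate 3 the counts were low, from 94 for Barhl1 (95% exact Poisson interval 76.0 to 115) to 2672 for Zic1; such intervals cover counting error only, as do floors, 3 reads being 0.465 CPM in that library. Where p-values rest on these replicates, they measure the spread between libraries, which may be partly technical.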

Additional observations from a re-analysis of the deposited data

Results flagged for a closer look

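Reads on the strand opposite Pax6 lie outside the counts used for the comparisons and were higher in KO, with a mean of 4.97 CPM in KO against 3.95 CPM in WT and no overlap between the 3 KO and 3 WT libraries (exact permutation p = 0.1, the smallest possible). Among 2965 tested genes with at least 100 opposite-strand reads in total, 6.24% were higher in KO without overlap and 27.4% were lower. Of the other 8 genes, Zic1 and Etv1 had fewer opposite-strand CPM in every KO library than in any WT library. For Etv1 this rested on 6, 7 and 8 reads in KO and 10, 9 and 2 reads in WT.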

How the results depend on the processing

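Over 117 recalculations, 13 for each of the 9 genes, 96 kept the direction and the side of the threshold, 6 lost a call, 10 gained a call and 5 turned in sign. The 5 turns were in Barhl1 (−0.016, −0.053 and −0.068) and Barhl2 (−0.126 and −0.116), with single libraries left out. Genes of the 9 past the threshold numbered 1, lower in KO, beside 16.7% of all tested genes. DESeq2 gave 3 (Zic1 at −0.362, Pax6 at −0.467 and Meis1), beside 17.1% of all genes. With limma-voom and quality weights there were 2 (Meis1 and Zic4 at −0.26), beside 26.4%. There were 0 with library sizes without TMM and Rn45s left out (Meis1 at −0.283), beside 8.2%. With 1 library left out there were 0 to 5. Without WT replicate 1 there were 5 (15% of all genes), without KO replicate 1 there were 3 (8.22%) and without WT replicate 3 there was 1 (23.4%). Without KO replicate 2, KO replicate 3 or WT replicate 2 there were 0 (7.22%, 6.64% and 8.46% of all genes). With 1 library left out, log2 fold changes ran from −0.488 to −0.30 for Zic1, −0.458 to −0.245 for Zic2, −0.354 to −0.206 for Zic4, −0.31 to −0.04 for Zic5, −0.615 to −0.276 for Pax6, −0.48 to −0.216 for Etv1, −0.068 to 0.144 for Barhl1, −0.126 to 0.194 for Barhl2 and −0.39 to −0.228 for Meis1. Of all tested genes 2585 passed (998 higher and 1587 lower), against 1280 with library sizes without TMM and Rn45s left out (200 and 1080), 4092 with limma-voom and 1041 to 3719 with 1 library left out, the lowest without KO replicate 3 and the highest without WT replicate 3. The cause was not tested.

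With the replicate number as a block, 0 of the 9 genes (Meis1 at −0.305, adjusted p = 0.104 by edgeR) and 1073 of all genes passed. Same-numbered libraries deviated from their group means with correlations of −0.183, −0.14 and −0.10. These values gave no sign of pairing by number, but 3 libraries per group are too few to show that the samples were unpaired. The depth of WT replicate 3 limits the genes with the lowest counts, such as Barhl1 with 94 reads. This library differed in more than depth: 18.2% of its reads were unmapped, against 5.97% to 7.55% in the others. It held the highest WT value of Zic4, Zic5, Pax6, Etv1, Barhl2 and Meis1, but not of Zic1, Zic2 or Barhl1. The part of these differences in the fold changes was not tested.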
